A study of Mus musculus with 6 samples.

Results

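The 10 genes described here encode chaperones, folding factors and a degradation factor of the endoplasmic reticulum (ER), together with XBP1, the transcription factor that induces many such genes. They are Hspa5, Hsp90b1, Pdia4, Dnajb9, Dnajc3, Herpud1, Sdf2l1, Creld2, Manf and Xbp1. They were chosen by symbol and make up 10 of the 24940 genes in the deposited exon count table, and all 10 passed the filter on low counts that left 11286 genes for testing. Polyadenylated RNA was sequenced from primary hepatic stellate cells (liver pericytes that store vitamin A), which were isolated from wild-type female C57BL/6JBomTac mice. After 2 days of culture the cells received vehicle (DMSO) in the DMSO+VIP group or 10 µM obeticholic acid (OCA), a bile acid analogue that activates the nuclear receptor FXR, in the OCA+VIP group. Both groups then received vasoactive intestinal peptide (VIP) at 500 nM, a neuropeptide that acts through cAMP-coupled receptors, from 3 h onward for another 3 h. Each group held 3 libraries, and because all 6 received VIP, the comparison is of OCA with vehicle in VIP-exposed cells. The labels do not say whether the 3 libraries of a group stem from different mice or wells, so each p-value reflects only how far these samples scatter, and that scatter may be technical.

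Proteins that enter the secretory pathway fold in the ER with the help of chaperones, and stellate cells, which secrete matrix proteins, use this machinery heavily. When unfolded proteins accumulate, sensors in the ER membrane start the unfolded protein response (UPR). The sensor IRE1 splices Xbp1 mRNA, the sensor ATF6 is cut by the proteases S1P and S2P to release a transcription factor, and the sensor PERK slows translation and raises ATF4. Spliced XBP1 and cleaved ATF6 induce chaperone and degradation genes through promoter elements called ERSE and ERSE-II, while ATF4 induces amino acid and stress genes.

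Total counts ran from 2.84e+06 to 4.57e+06 in the DMSO+VIP libraries and from 4.53e+06 to 9.95e+06 in the OCA+VIP libraries. Low counts lay within 0.5 of a multiple of 3 in 65.4% of cases in OCA+VIP library 2, the deepest library. In the other 5 they did so in 82.9% to 87.5% of cases. The cause is not known, and whether a count equals a fragment was not tested. The share expected of evenly spread counts, which here include steps of 0.5, was not computed. The lowest count of any of the 10 genes in any library was 170.5, for Sdf2l1 in DMSO+VIP library 2. Levels are given as CPM, the count per 1000000 counts of the library. All 13 stellate cell markers had counts, but not all were high. Lrat was at 1.31, 2.11 and 8.30 CPM in DMSO+VIP libraries 1 to 3 and at 4.77 to 13.2 CPM with OCA+VIP. Col3a1 was at 2.29 to 5.79 CPM with DMSO+VIP. Reln was at 177 to 375 CPM and Pdgfrb at 50.2 to 90.2 CPM there. By edgeR's test 3 rose (Dcn, Colec11 and Ecm1) and 3 fell (Des, Hgf and Col1a1). The share called was 46.2% of the 13, against 11.8% of all tested genes. The summed level of these markers was 848 to 1119 CPM with DMSO+VIP and 966 to 1081 CPM with OCA+VIP.

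Promoter sequences are shown because the 10 genes are known as UPR targets, and 5 of them hold a known UPR element near the start of transcription. RefSeq windows (GRCm38.p6, 250 bases before to 50 after the start of transcription) were found for 9 of the 10 genes. The windows were searched on both strands for ERSE, which is CCAAT and CCACG with 9 bases between them, and for ERSE-II, which is ATTGG and CCACG with 1 base between them. An ERSE was present in 4 of the 9 windows and in 0.119% of all 32851 windows of the same length. The ERSE-II letters were in 1 of the 9 and in 0.0365% of all windows. Capitals mark the 5 bases at each end of an element, or CGTGG and ATTGG where it lies on the other strand. Positions are counted back from the start of transcription, and each sequence reads in the direction of its gene.

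Hspa5, chr2:34772005-34772063, + strand, 85 to 27 bases before the start: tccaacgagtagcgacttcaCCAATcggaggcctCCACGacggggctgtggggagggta
Hsp90b1, chr10:86705513-86705676, - strand, 232 to 69 bases before the start: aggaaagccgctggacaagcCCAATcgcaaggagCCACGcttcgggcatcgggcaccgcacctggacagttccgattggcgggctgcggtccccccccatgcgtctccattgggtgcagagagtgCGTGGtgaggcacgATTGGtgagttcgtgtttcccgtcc
Dnajc3, chr14:118937807-118937865, + strand, 125 to 67 bases before the start: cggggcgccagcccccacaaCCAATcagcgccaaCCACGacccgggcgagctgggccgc
Creld2, chr15:88819500-88819558, + strand, 146 to 88 bases before the start: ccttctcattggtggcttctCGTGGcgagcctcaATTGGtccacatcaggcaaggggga
Herpud1, chr8:94386357-94386407, + strand, 72 to 22 bases before the start: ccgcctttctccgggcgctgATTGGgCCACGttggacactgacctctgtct

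Hsp90b1 held 2 ERSE matches and Hspa5, Dnajc3 and Creld2 held 1 each, while the match in Herpud1 was an ERSE-II. In the window of Dnajb9 neither element was found, but it held CACGTG, a palindrome around the ACGTG core that bZIP factors such as XBP1 can bind. CACGTG was present in 1 of the 9 windows and in 7.15% of all windows, and capitals mark it here.

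Dnajb9, chr12:44210150-44210195, - strand, 127 to 82 bases before the start: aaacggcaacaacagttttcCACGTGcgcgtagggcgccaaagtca

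CCACG alone was found in 8 of the 9 windows, Pdia4 and Sdf2l1 included, and in 32.8% of all windows. The window of Xbp1 held neither CCACG nor ACGTG. The absence of these letters from a window says nothing about binding elsewhere.

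With OCA, Dnajb9 rose and Herpud1 and Xbp1 fell, while the other 7 genes, including the main ER chaperones Hspa5 and Hsp90b1, did not pass the test. By edgeR's quasi-likelihood test with Benjamini-Hochberg adjusted p under 0.05, 1 of the 10 genes was called higher and 2 were called lower. Across all tested genes 11.8% were called, 5.72% as higher and 6.04% as lower. Groups that did not overlap in CPM were found for the same 3 of 10 genes, and for 30.6% of all tested genes, so the share among the 10 was near the background. The median log2 fold change was -0.06 over the 10 genes and 0.00097 over all tested genes. For the 7 genes that did not pass, the 95% intervals reached at most a 1.42-fold difference in either direction.

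**Figure D1:**
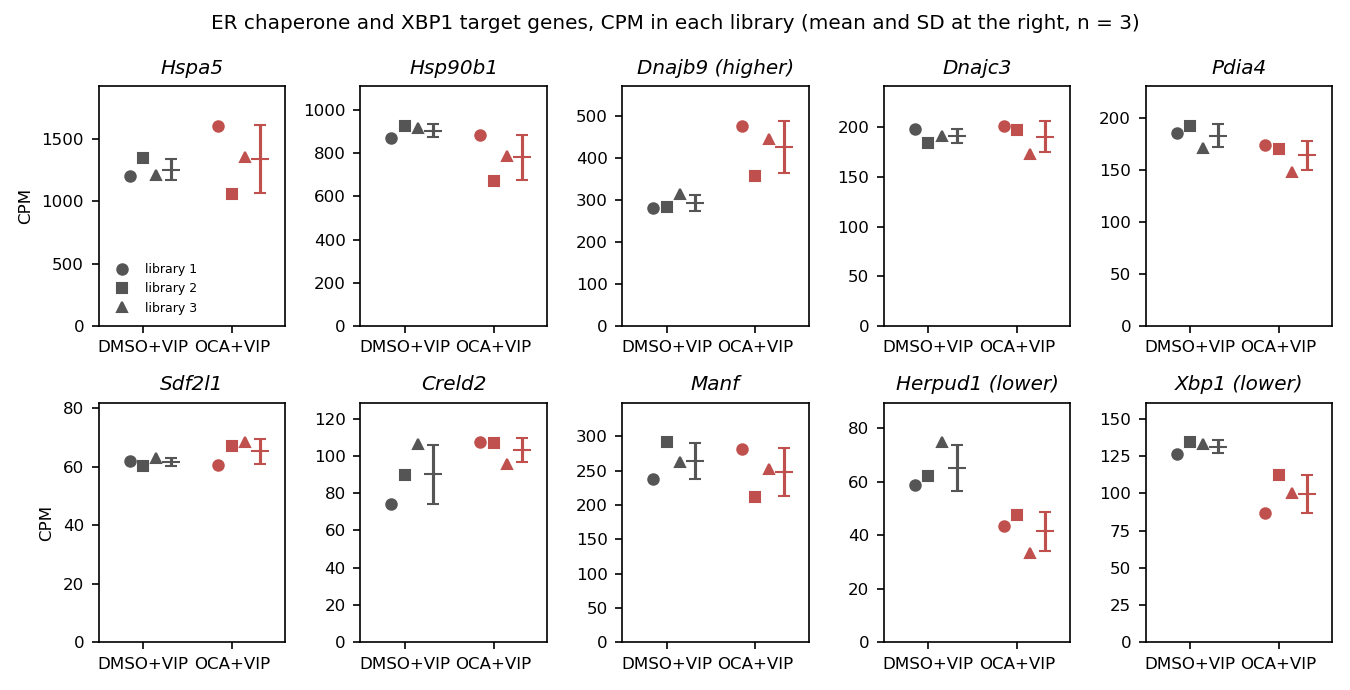
CPM of each of the 10 genes in the 3 DMSO+VIP and 3 OCA+VIP libraries (marker shape, library number), with the group mean and SD beside the points. Dnajb9 is higher and Herpud1 and Xbp1 are lower in every OCA+VIP library than in any DMSO+VIP library, and the groups overlap for the other 7 genes.

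Hepatocyte markers were higher with OCA, and in bulk RNA a change in the number of cells of a type and a change in RNA per cell cannot be told apart. Of 16 hepatocyte markers 14 were tested, 9 were called higher (64.3%, against 5.72% of all tested genes) and 5 did not pass. Apoh, Ttr and Serpina1b, all called higher, were at 0 CPM in every DMSO+VIP library. They passed the filter on low counts only through the OCA+VIP group. Fgb, Cyp2e1 and Ahsg, also called higher, had DMSO+VIP means of 1.55, 1.90 and 3.37 CPM. The filter thus favoured calls as higher among such genes, and the shares are not a like comparison. Their sum was 79.6, 92.6 and 85.2 CPM in DMSO+VIP libraries 1 to 3 and 451, 264 and 382 CPM in OCA+VIP libraries 1 to 3, while Tat and Cps1 were at 0 in all 6. The order of the OCA+VIP libraries, with library 1 highest and library 2 lowest, was also that of Dnajb9, Hspa5, Hsp90b1 and Manf. Xbp1 had the reverse order, and Pdia4, Dnajc3, Herpud1, Sdf2l1 and Creld2 had other orders. Total counts were 4.53e+06, 9.95e+06 and 5.80e+06 in OCA+VIP libraries 1 to 3, the reverse of the marker order. Whether the order of these genes goes with depth or with cell content was not tested. Among 7 B and plasma cell markers, a lineage in which XBP1 is abundant, only 1 was tested. This was Cd79a, which was called higher, but it was at 0 CPM in every DMSO+VIP library and passed the filter only through the OCA+VIP group. Derl3, which was not tested, went the other way. It had 0.66, 2.11 and 0 CPM in DMSO+VIP libraries 1 to 3 and 0, 0.70 and 0 CPM in OCA+VIP libraries 1 to 3. The sum of the 7 was 0 to 2.11 CPM with DMSO+VIP and 6.06 to 10.4 CPM with OCA+VIP, and Ms4a1, Mzb1, Jchain and Pax5 were at 0 in all libraries. Of the macrophage, endothelial and cholangiocyte markers 2 each were tested, and 0 of these 6 were called by edgeR, with 1 (Cd68) at an unadjusted p under 0.05. The sums ranged from 15.3 to 30.3 and from 28.3 to 41.0 CPM for 9 macrophage markers, from 0 to 6.67 and from 7.39 to 12.2 CPM for 8 endothelial markers, and from 6.16 to 14.9 and from 17.3 to 21.0 CPM for 6 cholangiocyte markers. Of the macrophage markers Vsig4, C1qa, C1qb and C1qc were at 0 in all libraries, as were Lyve1 and Fcgr2b of the endothelial and Krt7 and Cftr of the cholangiocyte markers. Of 7 T and NK cell markers 6 were at 0. The part of these cells in the results for the 10 genes was not tested.

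Xbp1 (NM_013842, chromosome 11, 5520641 to 5525993, mm10) encodes the transcription factor that IRE1 activates by splicing. Its level was 127, 134 and 133 CPM in DMSO+VIP libraries 1 to 3 and 87.0, 112 and 100.1 CPM in OCA+VIP libraries 1 to 3. All OCA+VIP libraries lay below all DMSO+VIP libraries, and the spread was wider with OCA. The mean went from 131 ± 4.19 to 99.8 ± 12.7 CPM (SD, n = 3 each), a 1.33-fold fall (log2 fold change -0.41, SE 0.13, 95% interval -0.68 to -0.14, edgeR adjusted p = 0.040). Leaving out OCA+VIP library 2 kept the call, and leaving out any of the other 5 libraries ended it (edgeR adjusted p from 0.069 to 0.15). With library-size scaling the edgeR adjusted p was 0.067, and with a replicate block it was 0.059.

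The counts cover whole exons and do not separate unspliced from spliced Xbp1 mRNA. IRE1 removes 26 bases from the mRNA, which is 1.16% of the 2240 bases of exon counted. The bases lie in coding exon 4 of 5 (chromosome 11, 5524279 to 5524304, GENCODE, GRCm38) and are shown in capitals. The search was for CNGCAG, the letters at which IRE1 cuts, repeated 26 bases on. It gave 2 pairs in the transcript, the other in exon 1, and the pair in exon 4 is the known splice site.

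Xbp1 exon 4, + strand: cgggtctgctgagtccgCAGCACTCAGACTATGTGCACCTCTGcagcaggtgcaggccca

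Hspa5 (NM_022310, chromosome 2, 34772090 to 34776529) encodes BiP, the ER member of the HSP70 family, which binds unfolded chains and holds the UPR sensors inactive. Its level was 1205, 1349 and 1209 CPM in DMSO+VIP libraries 1 to 3 and 1604, 1060 and 1354 CPM in OCA+VIP libraries 1 to 3. The highest and the lowest values were both in the OCA+VIP group. The means were 1254 ± 82.1 and 1339 ± 272 CPM (SD, n = 3), and the difference was not called (log2 fold change 0.09, 95% interval -0.23 to 0.41, edgeR adjusted p = 0.78). Without OCA+VIP library 1 the estimate was -0.10 and without OCA+VIP library 2 it was 0.26.

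Hsp90b1 (NM_011631, chromosome 10, 86690841 to 86705444) encodes GRP94, the ER member of the HSP90 family, which folds integrins and other client proteins. It had 872, 926 and 917 CPM in the DMSO+VIP and 882, 671 and 786 CPM in the OCA+VIP libraries. OCA+VIP library 1 lay within the DMSO+VIP range and the other 2 below it. Its log2 fold change was -0.22 (95% interval -0.51 to 0.06, edgeR adjusted p = 0.32). On the opposite strand 1810014B01Rik shares 10.3% of its exon bases, and whether reads were counted by strand is not given in the sources used here.

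Dnajb9 (NM_013760, chromosome 12, 44205897 to 44210068) encodes ERdj4, a J-domain partner of BiP that serves ER-associated degradation and recruits BiP to IRE1. It had 280, 283 and 314 CPM in DMSO+VIP libraries 1 to 3 and 477, 358 and 447 CPM in OCA+VIP libraries 1 to 3. Each OCA+VIP library was above each DMSO+VIP library, with OCA+VIP library 2 nearest to them. The mean went from 293 ± 18.5 to 427 ± 62.0 CPM (SD, n = 3), 1.45-fold higher (log2 fold change 0.54, SE 0.14, 95% interval 0.25 to 0.82, edgeR adjusted p = 0.012). The call was lost without any 1 of 4 libraries, namely DMSO+VIP library 1 or 2 and OCA+VIP library 1 or 3 (edgeR adjusted p from 0.054 to 0.082, log2 fold change 0.41 to 0.52). Without OCA+VIP library 2 the log2 fold change was 0.68.

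Dnajc3 (NM_008929, chromosome 14, 118937932 to 118981702) encodes P58IPK, another J-domain partner of BiP, also known as an inhibitor of PERK. It had 198, 184 and 191 CPM in the DMSO+VIP and 201, 197 and 173 CPM in the OCA+VIP libraries. The ranges overlapped over most of their width. Its log2 fold change was -0.02 (95% interval -0.27 to 0.23, edgeR adjusted p = 0.94).

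Pdia4 (NM_009787, chromosome 6, 47796141 to 47813512) encodes ERp72, a protein disulfide isomerase. Its level was 171 to 192 CPM over the 3 DMSO+VIP libraries and 148 to 174 CPM over the 3 OCA+VIP libraries. The groups overlapped only by OCA+VIP library 1 at 174 CPM against DMSO+VIP library 3 at 171 CPM. The log2 fold change was -0.17 (95% interval -0.43 to 0.08, edgeR adjusted p = 0.40).

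Sdf2l1 and Creld2 encode secretory-pathway proteins that are induced by ER stress, the first a partner of ER J-domain proteins and the second a protein with EGF-like repeats. Sdf2l1 (NM_022324, chromosome 16, 17130138 to 17132383) had 60.1 to 62.8 CPM with DMSO+VIP and 60.4 to 68.2 CPM with OCA+VIP. Creld2 (NM_029720, chromosome 15, 88819646 to 88826681) had 74.4, 89.6 and 106 CPM with DMSO+VIP, a wider spread than in the OCA+VIP libraries at 107, 107 and 95.4 CPM. Their log2 fold changes were 0.07 (95% interval -0.26 to 0.39) for Sdf2l1 and 0.18 (-0.13 to 0.50) for Creld2, and neither passed the test (edgeR adjusted p = 0.84 and 0.48).

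Manf (NM_029103, chromosome 9, 106887415 to 106891938) encodes a small secreted factor that stabilises BiP complexes. It had 238, 291 and 263 CPM in the DMSO+VIP and 281, 212 and 253 CPM in the OCA+VIP libraries. OCA+VIP library 2 was the lowest of the 6, and OCA+VIP libraries 1 and 3 lay within the DMSO+VIP range. On the opposite strand 4930524O07Rik and Dcaf1 share 4.71% and 4.14% of its exon bases. The log2 fold change was -0.10 (95% interval -0.39 to 0.19, edgeR adjusted p = 0.72).

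Herpud1 (NM_022331, chromosome 8, 94386429 to 94395371) encodes HERP, an ER membrane protein that organises the HRD1 complex for degradation of misfolded proteins. It had 58.7, 62.2 and 74.7 CPM in DMSO+VIP libraries 1 to 3 and 43.6, 47.7 and 33.3 CPM in OCA+VIP libraries 1 to 3. All OCA+VIP libraries lay below all DMSO+VIP libraries. The mean went from 65.2 ± 8.44 to 41.5 ± 7.39 CPM (SD, n = 3), a 1.58-fold fall (log2 fold change -0.66, SE 0.19, 95% interval -1.05 to -0.28, edgeR adjusted p = 0.021). The call was lost without DMSO+VIP library 3 (edgeR adjusted p = 0.11, log2 fold change -0.55) and without OCA+VIP library 3 (0.13, -0.53).

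**Figure D2:**
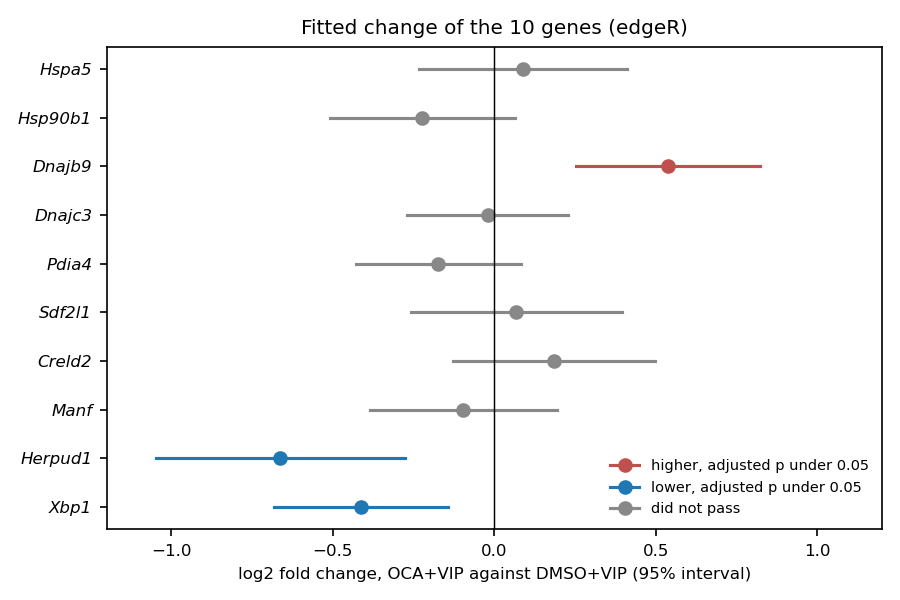
Fitted log2 fold change of each gene, OCA+VIP against DMSO+VIP, with its 95% interval (red, called higher; blue, called lower; grey, did not pass). Dnajb9 lies at 0.54, Herpud1 at -0.66 and Xbp1 at -0.41, and the intervals of the other 7 genes include 0.

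Among the 10 genes the level per exon length spanned more than an order of magnitude. Hspa5 had 481 ± 31.5 CPM per kilobase with DMSO+VIP (SD, n = 3) and ranked 46 from the top among the 11286 tested genes by its mean over the 6 libraries. Hsp90b1 followed with 330 ± 10.4, Dnajb9 with 157 ± 9.95 and Manf with 120.0 ± 12.1 CPM per kilobase. These 4 did not overlap with their neighbours over the DMSO+VIP libraries. The ranges of Pdia4 (74.1 ± 4.43), Creld2 (66.6 ± 11.8), Xbp1 (58.7 ± 1.87) and Sdf2l1 (55.8 ± 1.27) overlapped from each to the next. Dnajc3 (36.9 ± 1.37) and Herpud1 (33.5 ± 4.34) were lowest and overlapped. In the OCA+VIP libraries the top 4 kept this order, but Dnajb9 at 230 ± 33.3 overlapped with Hsp90b1 at 285 ± 38.7 CPM per kilobase. Xbp1 at 44.6 ± 5.67 CPM per kilobase ranged below Sdf2l1 at 59.1 ± 3.78 there, without overlap.

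**Figure D3:**
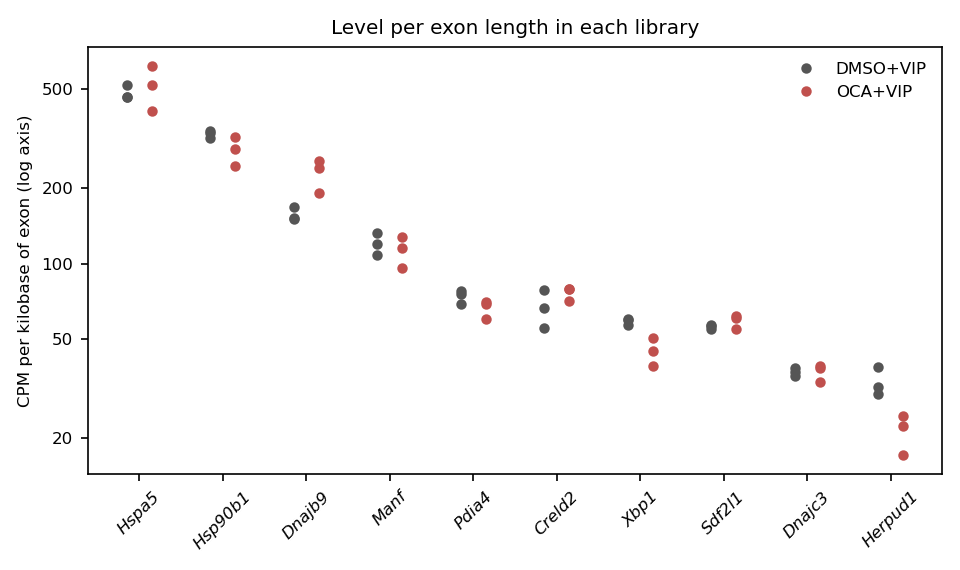
CPM per kilobase of exon on a log axis for each gene in the 3 libraries of each group, ordered by the DMSO+VIP mean. Hspa5 is highest in both groups (481 and 514 on average) and Herpud1 lowest (33.5 and 21.4).

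Dnajb9 and Xbp1, a target of XBP1 and its own regulator, moved in opposite directions. The ratio of their levels per kilobase was 2.67, 2.54 and 2.83 in DMSO+VIP libraries 1 to 3 and 6.60, 3.83 and 5.38 in OCA+VIP libraries 1 to 3. All 3 OCA+VIP ratios were above the DMSO+VIP range. The pair was chosen after its values were seen, so the ratio is a description with no test. The sum of the 10 genes was 3438 ± 136 CPM in the DMSO+VIP and 3459 ± 458 CPM in the OCA+VIP libraries (SD, n = 3), of which Hspa5 made up 35.1% to 40.9%.

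The wider ER machinery showed few calls. In the lists of other ER chaperones and oxidoreductases (17 genes), ER-associated degradation (16), the translocon and signal recognition (19) and COPII and ER export (17), all 69 genes were tested. Of these, 0 were called higher, 1 lower and 68 did not pass by edgeR's test, 1.45% against 11.8% of all tested genes. Their median log2 fold change was -0.02, and groups without overlap were found for 21 of the 69, against 30.6% of all tested genes. The intervals of 50 of the 69 genes lay within a 1.5-fold difference in either direction. DESeq2 called 5 of the 69 higher and 3 lower, 11.6% against 17% of the 12952 genes to which it gave an adjusted p.

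Among the other chaperones, 17 of 17 did not pass (median log2 fold change -0.06). The genes of smallest p were Dnajb11, encoding the BiP partner ERdj3 (log2 fold change 0.39, edgeR adjusted p = 0.075), the prolyl isomerase gene Ppib (-0.32, 0.12), the oxidase gene Ero1lb (0.53, 0.22) and Fkbp2 (0.65, 0.29). The gene Snx22 on the opposite strand overlaps exons of Ppib. In the degradation list 16 of 16 did not pass, with a median of 0.08. Selenos and Derl1, which encode partners in retrotranslocation, had log2 fold changes of 0.34 and 0.30 (edgeR adjusted p = 0.11 for each). The mannosidase genes Man1b1 and Edem1 had -0.26 and 0.26 (edgeR adjusted p = 0.20 and 0.22).

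In the translocon list, Srp72, which encodes a subunit of the signal recognition particle, was the gene that fell, and 18 of 19 did not pass (median -0.06). Srp72 went from 171 ± 18.5 to 118 ± 32.8 CPM (SD, n = 3; log2 fold change -0.55, SE 0.15, edgeR adjusted p = 0.020). Its call was lost without DMSO+VIP library 1 or 3 or OCA+VIP library 1 (edgeR adjusted p = 0.084, 0.097 and 0.12). Spcs3 of the signal peptidase, the channel gene Sec61a1 and the receptor gene Srprb had log2 fold changes of -0.39, 0.36 and 0.23 and did not pass. Of the exon bases of Srprb, 20.7% also belong to the readthrough gene Gm20425. In the export list 17 of 17 did not pass (median -0.02). The KDEL receptor gene Kdelr2, whose product returns escaped chaperones to the ER, came nearest (log2 fold change 0.38, edgeR adjusted p = 0.053). Mcfd2, Sar1b and Sec24d had -0.33, 0.26 and 0.37.

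Of 12 genes for UPR sensors and ER-membrane transcription factors, 11 were tested, and 2 rose, 1 fell and 8 did not pass (median log2 fold change -0.20). The share called was 27.3%, against 11.8% of all tested genes. Ern1, which encodes IRE1, had 175, 133 and 111 CPM in the DMSO+VIP and 197, 208 and 176 CPM in the OCA+VIP libraries. The 2 ranges nearly met at 175 and 176 CPM. Ern1 rose (0.45 on the log2 scale, SE 0.14, edgeR adjusted p = 0.044), as did Traf2, an adaptor that binds IRE1 (0.45, SE 0.14, 0.034). The call of Ern1 held without DMSO+VIP library 1 and was lost without any of the other 5 (edgeR adjusted p from 0.056 to 0.24), and that of Traf2 without any 1 of 4, all but DMSO+VIP library 1 and OCA+VIP library 2 (0.094 to 0.16). With upper-quartile scaling the edgeR adjusted p was 0.066 for Ern1 and 0.052 for Traf2.

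Mbtps1, which encodes the protease S1P that cuts ATF6, fell from 149, 156 and 168 CPM in DMSO+VIP libraries 1 to 3 to 64.5, 111 and 104 CPM in OCA+VIP libraries 1 to 3. The groups did not overlap (log2 fold change -0.78, SE 0.15, edgeR adjusted p = 0.0016). The fall held under each of 15 alternative settings (edgeR, DESeq2 or limma adjusted p of at most 0.014). Atf6 itself had a log2 fold change of -0.01 (95% interval -0.25 to 0.23) and Eif2ak3, which encodes PERK, of -0.20 (-0.67 to 0.28). Neither passed the test (edgeR adjusted p = 0.97 and 0.65). Wfs1, an ER membrane gene, had -0.45 (0.14).

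In the list of genes linked to PERK, ATF4 and CHOP most calls were lower, while PERK activity was not measured. Of 13 tested genes of the PERK-ATF4-CHOP list, 7 fell, 1 rose (Sesn2, log2 fold change 0.58) and 5 did not pass (median log2 fold change -0.73). The share called was 61.5%, against 11.8% of all tested genes. Ddit4, an inhibitor of mTORC1, went from 227 ± 14.3 to 123 ± 14.8 CPM and Nupr1, a stress-induced chromatin protein, from 88.7 ± 4.44 to 37.3 ± 7.16 CPM (SD, n = 3; log2 fold changes -0.90 and -1.26, edgeR adjusted p = 3.5e-05 for each). Asns and Trib3 were the others of smallest p (-1.19 and -1.63). Atf4 had a log2 fold change of -0.36 and Ddit3, which encodes CHOP, of -0.21, and neither passed the test (edgeR adjusted p = 0.11 and 0.35). In the fits that left out 1 library, 7 or 8 members of this list were called lower, and 0 to 2 of the 10 ER genes. No test compared this list with the 10 genes.

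**Figure D4:**
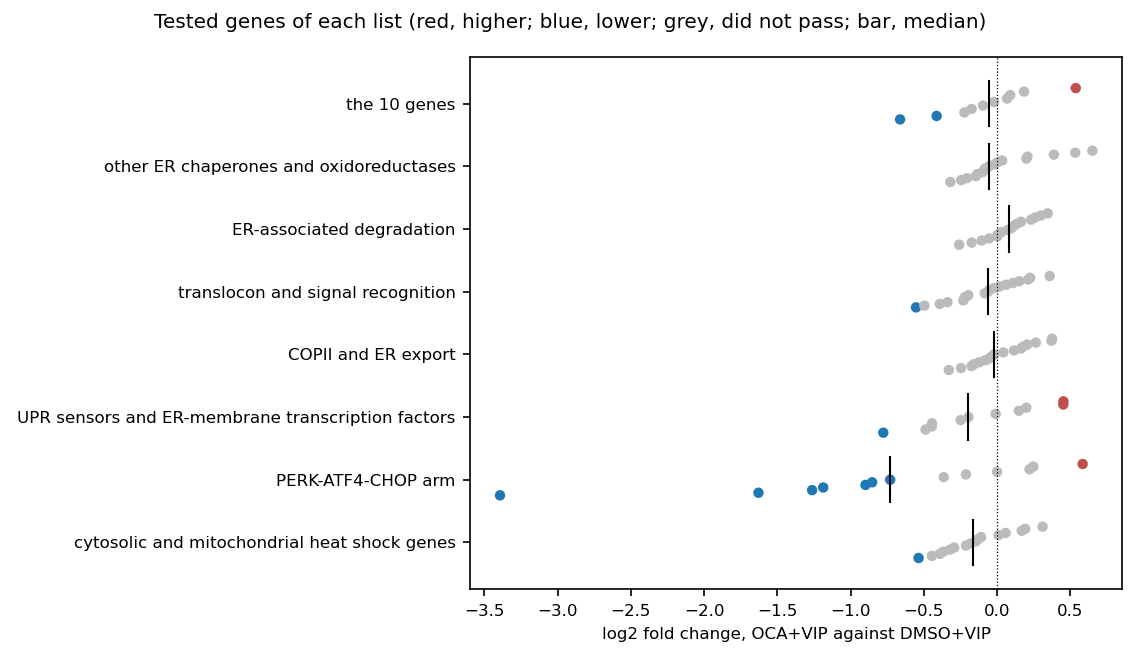
Log2 fold change of each tested gene, OCA+VIP against DMSO+VIP, by list (red, called higher; blue, called lower; grey, did not pass; black bar, median of the list). The medians of the 4 lists of ER machinery lie between -0.06 and 0.08, and that of the PERK-ATF4-CHOP list at -0.73.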

How the data were processed

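The authors deposited 1 table of estimated counts over the exons of 1 RefSeq transcript per gene, not adjusted for library size. Per the submitters' processing notes, STAR, HOMER, DESeq2 and mm10 were used, with no role given. Strand and duplicate handling are not given in the sources used here. Exon length and genomic copies (1 for each of the 10 genes) are other deposited columns. Column names gave the group but not the lettered replicate, so libraries are numbered as the columns are.

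Counts were rounded and tested with edgeR 4.0.16 (R 4.3.3, limma 3.58.1) across all genes. The steps were TMM, filterByExpr (minimum count 10, minimum total 15), a two-sided quasi-likelihood F test and Benjamini-Hochberg adjustment, with a threshold of 0.05 and 4 residual degrees of freedom. Steps were tested on simulated data. CPM use library totals without TMM, and intervals are the fit's 95% intervals. The genes, lists and tests were chosen with earlier results of these data known. Named genes are the 10, up to 4 per pathway list with the lowest p and at least 1 CPM on average, and the 5 most like Hspa5 and Xbp1 (mean of at least 10 CPM). Sesn2, Atf4, Ddit3, Atf6 and Eif2ak3 were named after their values were seen, as were the cell markers named from the marker lists. Ero1lb, Tango1 (as Mia3) and the like were matched by either symbol. Alternatives were other scalings, filters, thresholds and tools (DESeq2 1.42.0, limma-voom), a replicate block, counts divided by 6 and leaving out each library. Their use on called genes outside the 10 was added after the calls were seen. Of the listed cell markers, 1 is not reported here.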

Additional observations from a re-analysis of the deposited data

How the results depend on the processing

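The direction of Dnajb9, Herpud1 and Xbp1 was the same under all 15 alternatives tried for each, with log2 fold changes of 0.41 to 0.68, -0.75 to -0.53 and -0.47 to -0.35. Their calls held under 11, 13 and 8 of the 15. The sign turned for 3 genes that had not passed the test. These were Hspa5 without OCA+VIP library 1 (-0.10; range without 1 library -0.10 to 0.26), Dnajc3 without OCA+VIP library 3 (0.042; -0.10 to 0.04) and Manf without OCA+VIP library 2 (0.044; -0.23 to 0.04). The cause was not tested.

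Of the 10 genes, 0 were higher and 0 lower at a threshold of 0.01, and 0 to 1 were higher and 0 to 2 lower when 1 library was left out. With library-size scaling 1 was lower. With the replicate block 1 was lower. The correlations of deviations from the group means were -0.04, -0.05 and 0.03 for libraries of the same number. For libraries of unlike number they were -0.03 to 0.08. These values showed no shared scatter by number, but they cannot settle whether the samples were paired, and the labels do not say. The block gave 1117 called genes in place of 1327. DESeq2 gave 2201 called genes, a threshold of 0.01 gave 648, and leaving out 1 library gave 737 to 1478.

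In the lists, counts moved as follows. Other chaperones: 1 higher with library-size scaling, no filter, DESeq2 or a threshold of 0.1, and 0 to 2 without 1 library. Degradation: 2 higher with DESeq2. Translocon: 1 higher with library-size scaling, no filter, DESeq2 or a threshold of 0.1, and 0 to 1 without 1 library; lower, 2 with DESeq2 or a threshold of 0.1, 0 at 0.01 and 0 to 1 without 1 library. Export: 1 higher with library-size scaling, no filter, DESeq2 or 0.1, 0 to 2 without 1 library, and 1 lower with DESeq2, 0.1 or counts divided by 6. UPR sensors: 0 higher with upper-quartile scaling or at 0.01, and 0 to 2 without 1 library. PERK-ATF4-CHOP: 1 to 2 higher without 1 library. Heat shock genes: lower, 2 with upper-quartile or library-size scaling, limma-voom, 0.1 or counts divided by 6, 4 with no filter, 0 with the replicate block or at 0.01, and 0 to 4 without 1 library, with 0 to 1 higher. At this depth the SE of the log2 fold change was 0.12 to 0.19 over the 10 genes. The part of depth and of the count steps in this SE was not tested.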

Other observations

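Chaperones outside the ER were also measured. Of 16 cytosolic and mitochondrial heat shock genes, 1 fell and 15 did not pass the test, with a median log2 fold change of -0.16. Thus 6.25% of the list was called, against 11.8% of all tested genes (6.04% as lower). Hspa1b, the inducible cytosolic HSP70, went from 1953 ± 184 to 1351 ± 342 CPM (SD, n = 3; log2 fold change -0.54, SE 0.17, edgeR adjusted p = 0.041). Its call was lost without DMSO+VIP library 1, 2 or 3 or OCA+VIP library 3 (edgeR adjusted p from 0.080 to 0.18), with DESeq2 (adjusted p = 0.062) and with the replicate block (edgeR adjusted p = 0.088). Hspa1a, a near-identical copy that can share reads with it, had -0.39 (edgeR adjusted p = 0.15). Hspe1 and Hsp90ab1 had -0.45 and -0.37 and did not pass. Summed over the list the level was 16319.8, 10807.5 and 14241.5 CPM in OCA+VIP libraries 1 to 3. Library 2, the deepest, was thus the lowest of these 3, as it was for Hspa5, Hsp90b1, Dnajb9 and Manf.

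Across the 6 libraries, Pearson's r of log2 CPM (TMM scaling) described how the 10 genes varied together. These points share 2 groups and libraries of unequal depth, and no p is given. Manf followed Hsp90b1 (r = 0.90) and Hspa5 (0.88). Dnajb9 ran against Xbp1 (r = -0.91), and Herpud1 ran with Xbp1 (0.83). Dnajb9, Herpud1 and Xbp1 were the genes called between the groups, so these 2 values follow in part from those calls and are no separate result. Pdia4 and Sdf2l1, which were not called, also ran against each other (-0.89). Of 9033 other genes with a mean of at least 10 CPM, the 5 most like Hspa5 were Ctsd, Hnrnpk, Pkm, Txnrd1 and Emp1 (r from 0.984 to 0.993). The 5 most like Xbp1 were Trim25, Msrb3, Ankrd33b, Sh3bgrl and Hoxa5 (r from 0.994 to 0.998), each of them called lower with OCA by edgeR. They were picked for likeness to Xbp1, which fell in these same libraries, so their fall follows from the choice and is no separate result. For Hspa5, 49 genes had an r above 0.95, and for Xbp1, 206 had.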
